A study of Homo sapiens with 11 samples.

Results

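HCT116 is an established human colorectal cancer cell line, and its total RNA is represented by 4 groups, each of 2 libraries. All cells were transfected with an siRNA. The control siRNA was directed at luciferase, which these cells lack (siLuc), and the other at Staufen1 (siStau1), which binds double-stranded RNA. Each siRNA arm received the solvent DMSO or decitabine (DAC), a nucleoside analogue that lowers DNA methylation, which the labels give as 500 nM for 5 days. The deposited table gives 1 FPKM value per gene and group (fragments per length of transcript, scaled to sequencing depth) and none per library. No replicate spread could therefore be computed, and library depth is unknown. In bulk RNA, fewer cells that express a gene and less RNA per cell cannot be told apart. The genes described here are those whose symbol is LINC followed by digits only and whose FPKM was at least 1 in 1 or more of the 4 groups. There were 168 such genes among 1881 LINC genes in a table of 58699 genes, or 8.93% of the LINC genes. Of the 1881, 952 were listed at 0 in all 4 groups.

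LINC symbols are given to long intergenic noncoding RNAs, transcripts without a recognised protein product that lie between coding genes and have no name for a known function. Many are transcribed in few tissues and at low levels, and some start in sequences of endogenous retroviruses. Cytosine methylation at CpG dinucleotides, kept up by DNMT1 after replication, is known to hold many tissue-restricted genes silent. Decitabine is built into DNA and traps the methyltransferases, so that methylation is lost as cells divide.

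The FPKM values chose the genes, so their levels and the authors' calls on them are given as a description. The label of the cells was checked on preset markers. Of 7 epithelial markers, 5 had at least 1 FPKM in all 4 groups (EPCAM, KRT8, KRT18, KRT19 and CDH1), VIL1 was under 1 in all 4, and LGALS4 passed 1 only with DAC. Of 6 markers of other cells, 4 were under 1 FPKM in all 4 groups, and the summed level of the 6 was 1.996 FPKM with DMSO and 11.5 with DAC in the siLuc arm, and 0.984 and 9.25 in the siStau1 arm. COL1A1, a collagen gene, reached the highest value of the 6, at 8.60 FPKM in siLuc DAC. STAU1, the target of the siRNA, had 35.5, 33.7, 29.98 and 27.1 FPKM (siLuc with DMSO and with DAC, then siStau1 likewise), and its q-values for siStau1 against siLuc in the authors' deposited table were 0.767 with DMSO and 0.685 with DAC. Its log2 ratios, siStau1 over siLuc, were -0.24 and -0.31, so a lower level of the target is not shown by these values. The groups are named by their labels throughout.

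A gene was called silent when its FPKM was under 0.1 in both DMSO groups, and on when it was at least 1 in both DAC groups. By this rule 19 of the 168 genes went from silent to on in both siRNA arms: LINC00958, LINC00540, LINC01647, LINC01980, LINC01091, LINC01511, LINC02204, LINC02432, LINC00501, LINC00200, LINC02240, LINC02434, LINC01287, LINC02506, LINC02158, LINC00868, LINC01518, LINC02244 and LINC01160. They made up 11.3% of the LINC genes, while 2.05% of all 16046 genes with at least 1 FPKM in a group showed this pattern. The share was 2.75% among 1271 other expressed long noncoding RNA genes and 1.93% among 12610 expressed protein-coding genes. The share silent in both DMSO groups was also higher, 34 of the 168 LINC genes (20.2%), against 634 of all expressed genes (3.95%). It was 6.45% among the other expressed long noncoding RNA genes. A silent gene enters any of these sets only through a DAC group. Of the silent genes, 55.9% of the LINC genes were on in both DAC groups and 51.9% of all genes. The share was 42.7% for the other long noncoding RNA genes (35 of 82) and 64.1% for the protein-coding genes (243 of 379). The opposite pattern, at least 1 FPKM in both DMSO groups and under 0.1 in both DAC groups, was held by 0 LINC genes and by 9 of all expressed genes.

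RefSeq start regions, each 250 bases before to 50 bases after a gene's start (GRCh38.p14), were matched for 114 of the 168 genes and 10 of the 19. In 109 and 9 of these the RefSeq start lay within 1000 bases of a transcript start in GENCODE release 29. LINC00868, LINC00958, LINC01160, LINC01511, LINC01647, LINC02158, LINC02204, LINC02432 and LINC02506 had no match. The windows of 6 of the 19 genes are shown because CpG dinucleotides, the sites of DNA methylation, are in capitals, and the windows range from the richest to the poorest in them. Positions are chr4:188159803-188160102 (plus strand) for LINC02434, chr10:1159518-1159817 (plus) for LINC00200, chr7:153412185-153412484 (minus) for LINC01287, chr10:42691710-42692009 (minus) for LINC01518, chr13:22210035-22210334 (plus) for LINC00540 and chr5:125493011-125493310 (plus) for LINC02240.
LINC02434: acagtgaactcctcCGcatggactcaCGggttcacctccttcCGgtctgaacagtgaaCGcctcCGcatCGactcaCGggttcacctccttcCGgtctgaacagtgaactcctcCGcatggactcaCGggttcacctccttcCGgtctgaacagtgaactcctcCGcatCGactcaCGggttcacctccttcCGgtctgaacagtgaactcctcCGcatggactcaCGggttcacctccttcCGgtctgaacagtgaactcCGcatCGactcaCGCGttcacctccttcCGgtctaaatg
LINC00200: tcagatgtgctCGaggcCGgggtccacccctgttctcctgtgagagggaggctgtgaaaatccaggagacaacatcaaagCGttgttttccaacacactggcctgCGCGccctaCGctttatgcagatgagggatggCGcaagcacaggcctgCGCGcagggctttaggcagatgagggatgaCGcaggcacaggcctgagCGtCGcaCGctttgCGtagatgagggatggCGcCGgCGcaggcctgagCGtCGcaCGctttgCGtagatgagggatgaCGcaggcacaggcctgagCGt
LINC01287: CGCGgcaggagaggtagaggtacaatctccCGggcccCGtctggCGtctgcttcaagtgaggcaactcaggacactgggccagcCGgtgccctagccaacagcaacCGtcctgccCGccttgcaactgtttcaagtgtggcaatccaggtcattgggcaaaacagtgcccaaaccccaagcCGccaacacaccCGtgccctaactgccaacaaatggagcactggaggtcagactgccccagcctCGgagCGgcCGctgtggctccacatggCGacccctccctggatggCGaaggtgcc
LINC01518: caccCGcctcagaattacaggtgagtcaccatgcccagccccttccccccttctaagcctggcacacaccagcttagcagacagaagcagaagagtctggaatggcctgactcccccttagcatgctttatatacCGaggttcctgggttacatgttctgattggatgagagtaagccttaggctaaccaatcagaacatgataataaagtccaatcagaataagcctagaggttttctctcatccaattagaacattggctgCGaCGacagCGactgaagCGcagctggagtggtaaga
LINC00540: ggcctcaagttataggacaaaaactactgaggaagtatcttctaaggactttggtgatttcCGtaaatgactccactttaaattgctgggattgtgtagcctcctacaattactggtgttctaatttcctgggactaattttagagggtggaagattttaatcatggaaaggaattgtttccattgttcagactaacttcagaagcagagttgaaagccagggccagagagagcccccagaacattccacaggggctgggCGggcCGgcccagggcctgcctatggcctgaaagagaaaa
LINC02240: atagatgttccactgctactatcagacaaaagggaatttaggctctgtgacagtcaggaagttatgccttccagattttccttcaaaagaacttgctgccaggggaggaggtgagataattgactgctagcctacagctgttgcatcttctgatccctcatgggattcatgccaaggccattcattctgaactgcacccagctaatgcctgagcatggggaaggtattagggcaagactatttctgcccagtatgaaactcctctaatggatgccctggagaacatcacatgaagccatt

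The windows held 23 CpGs for LINC02434, 23 for LINC00200, 15 for LINC01287, 6 for LINC01518, 3 for LINC00540 and 0 for LINC02240. A ratio of observed to expected CpG of at least 0.6, a usual limit for a CpG island, was reached by 2 of the 9 windows (22.2%), those of LINC02434 (0.996) and LINC00200 (0.832). It was reached by 55 of the 100 windows of the other LINC genes (55.0%) and by 48.9% of all 35116 RefSeq windows. The median number of CpGs was 6 in the 9 windows and 20 in the 100. Each window was also compared with itself after a shift, which finds repeats in tandem. Shifted by 50 bases, the LINC02434 window matched at 85.2% of positions, and the LINC00200 window matched at 50.8% with a shift of 48 bases. A match of at least 70% at a shift of 10 to 150 bases was found in 0.336% of all RefSeq windows, in the LINC02434 window and in 0 of the 100 windows of the other LINC genes. The median best match was 35.4% over all RefSeq windows.

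Motifs were searched in the same windows on both strands. The CCAAT box, the core of sites bound by the factor NF-Y and abundant in some retroviral long terminal repeats, was written CCAAT or ATTGG and was found in 3 of the 9 windows (33.3%), against 34.6% of all RefSeq windows. The LINC01518 window held 5 copies, and 3 or more copies were found in 3.26% of all RefSeq windows. No annotation of repeats was at hand, so whether any window lies in retroviral sequence was not examined. The TATA box, written TATAAA or TTTATA, was found in 2 of the 9 windows, those of LINC01518 and LINC01091, against 11.5% of all RefSeq windows. The E-box CACGTG (0 of 9, against 7.26%) and the cyclic AMP response element TGACGTCA (0 of 9, against 1.85%) were not in these 9 windows.

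Because the windows cover 9 of the 19 genes, CpG content was also taken from the first 300 bases of the longest GENCODE transcript of every gene. There the ratio of observed to expected CpG had a median of 0.463 in the 19 genes and 0.484 in the other 149. A ratio of at least 0.6 was reached by 5 of the 19 (26.3%), by 52 of the 149 (34.9%), by 40.2% of the other expressed long noncoding RNA genes and by 67.0% of expressed protein-coding genes. Among silent-to-on genes of these other classes, the shares were 22.9% of 35 long noncoding RNA genes and 46.1% of 243 protein-coding genes. Of the 15 LINC genes silent with DMSO and on with DAC in a single arm, 13.3% reached it. A stricter limit of 0.75 was reached by 1 of the 19 (5.26%) and by 32 of the 149 (21.5%). The shares at 0.75 were 23.7% for the other expressed long noncoding RNA genes and 11.4% for the 35 silent-to-on ones. These differences were not tested. Of the 19, LINC00200 had the highest ratio (0.848) and LINC01091 the lowest (0.0729). The RefSeq windows also take in sequence upstream of the start, which these 300 bases do not.

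**Figure D1:**
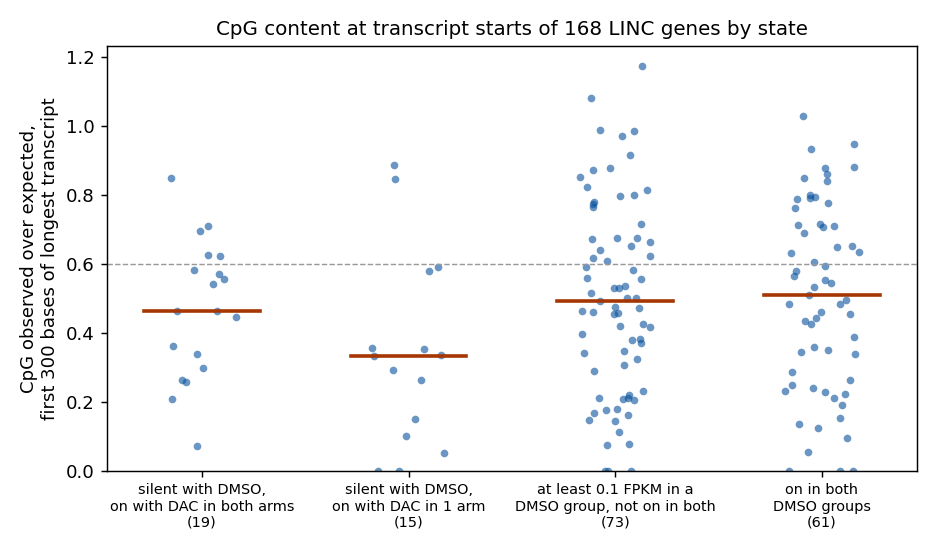
CpG observed over expected (y axis, no unit) in the first 300 bases of the longest transcript of each of the 168 LINC genes, with 1 point per gene and a bar at the median. The 19 genes silent with DMSO and on with DAC in both arms have a median of 0.463, near the 0.510 of the 61 genes on in both DMSO groups, and the dashed line marks 0.6.

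Among the 19 genes, LINC00958 reached the highest level. This RNA, described in bladder cancer, is encoded on the minus strand of chromosome 11 (ENSG00000251381.7, 12961842 to 12989548, GRCh38, 2 exons in its longest transcript). Both DMSO groups were listed at 0, while siLuc DAC reached 23.5 FPKM and siStau1 DAC 17.2. The authors' deposited table gives 0.00162 as the q-value of LINC00958 for either arm, the smallest it holds. The other 18 genes stayed under 7 FPKM in every group, and 16 of the 19 were under 5 FPKM in both DAC groups.

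Another 11 genes were listed at 0 in both DMSO groups, so that 12 of the 19 had this pattern with LINC00958. LINC01511 (chromosome 5, 1363582 to 1380067, minus strand) had 3.63 FPKM under DAC with siLuc and 2.02 with siStau1. LINC01980 (chromosome 3, 27797563 to 27931579, plus strand) had 3.11 and 2.35 FPKM in the same order. LINC00501 had 2.48 and 1.71 FPKM. In these 3 genes the siLuc arm stood higher under DAC. LINC00200 had 2.31 FPKM under DAC with siLuc and 1.65 with siStau1, and LINC02506 had 1.84 and 1.31. LINC02158 had 1.56 and 1.29 FPKM. LINC01518 had 1.12 FPKM under DAC with siLuc and 1.11 with siStau1. This last gene, with the window richest in CCAAT boxes, had the most equal levels in the arms. The remaining 4 genes listed at 0 with DMSO had more in siStau1 DAC than in siLuc DAC. LINC02240 had 1.61 FPKM under DAC with siLuc and 2.01 with siStau1, and LINC02434, with the tandem window, had 1.51 and 2.23. LINC01287 had 1.34 and 1.61 FPKM, and LINC02244 had 1.09 and 1.32.

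The other 7 of the 19 genes had a value above 0 in 1 or both DMSO groups, at most 0.0922 FPKM. LINC01647 (chromosome 1, 11609531 to 11613355, plus strand) had 0.0653 FPKM with DMSO and 6.48 with DAC in the siLuc arm, and 0.0731 and 2.63 in the siStau1 arm. LINC02432 was listed at 0 in siLuc DMSO and had 5.21 FPKM in siLuc DAC, and the siStau1 arm had 0.0734 with DMSO and 1.87 with DAC. LINC00540 had 0.0922 FPKM with DMSO and 4.37 with DAC in the siLuc arm and 3.78 with DAC in the siStau1 arm, with siStau1 DMSO at 0. As for all 19 genes, the rule itself sets the DAC groups above the DMSO groups. LINC02204 had 0.0501, 4.34, 0.0270 and 1.99 FPKM (siLuc with DMSO and with DAC, then siStau1 likewise), and LINC01091 had 0.0360, 2.04, 0.0288 and 2.66. LINC00868 had 0.0773 FPKM with DMSO and 1.18 with DAC in the siLuc arm and 1.11 with DAC in the siStau1 arm, and LINC01160 had 0.0665, 1.77 and 1.03. Both were listed at 0 in siStau1 DMSO.

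**Figure D2:**
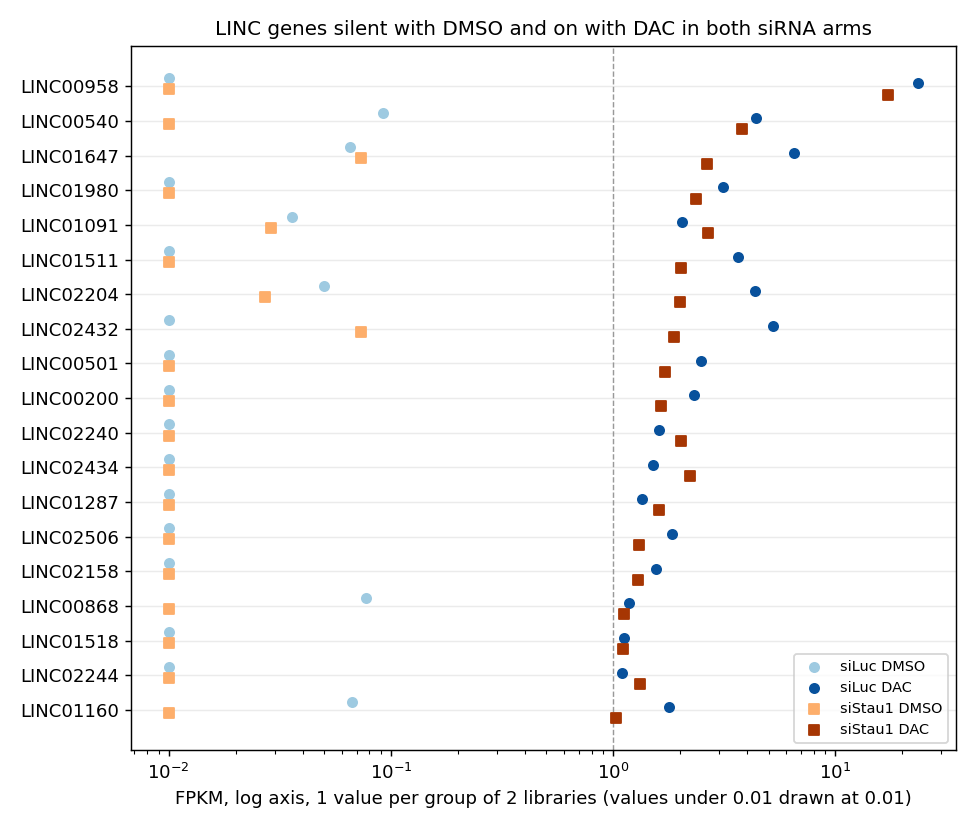
FPKM (log x axis) of the 19 LINC genes silent with DMSO and on with DAC, with 1 point per group of 2 libraries and values under 0.01 drawn at 0.01. The DMSO points lie at or under 0.0922 and the DAC points above the dashed line at 1, as the rule requires, and LINC00958 stands apart at 23.5 and 17.2 FPKM.

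Calls in the authors' deposited table mostly went with whether the DMSO value was exactly 0. Of the 19 genes, 10 were called at a q-value under 0.05 with DAC in siLuc, 10 in siStau1, 8 in both and 7 in neither. In siLuc 10 of the 13 genes listed at 0 with DMSO were called, and 0 of the 6 genes above 0. In siStau1 the numbers were 10 of 15 and 0 of 4. Thus LINC01647, with 6.48 FPKM under DAC in siLuc, had a q-value of 0.526, while LINC01518, with 1.12 FPKM, had 0.0126. The same split was present in the 329 genes of any kind with this pattern: in siLuc 72.6% of the tested genes listed at 0 were called and 11.7% of those above 0, and in siStau1 66.5% and 12.0%. The part of the exact 0 in these calls was not tested.

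At the thresholds the values were close together. LINC00540 (0.0922 FPKM at most with DMSO) and LINC00868 (0.0773) lay just under the limit for silent. LINC01554, with 0.124, 3.31, 0.116 and 2.23 FPKM (siLuc with DMSO and with DAC, then siStau1 likewise), lay just above it, as did LINC02575, with 0.174 FPKM in siStau1 DMSO. LINC01160 (1.03 FPKM in siStau1 DAC) and LINC02244 (1.09 in siLuc DAC) were just on. LINC02583 (0.988 FPKM in siStau1 DAC) and LINC02484 (0.963 in siLuc DAC) just missed. For membership, LINC00342 (1.02 FPKM at its highest) and LINC01424 (1.03) were just inside, and LINC01269 (0.982) and LINC01842 (0.968) just outside.

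A further 15 LINC genes were silent in both DMSO groups and reached 1 FPKM with DAC in a single arm, 10 in siLuc and 5 in siStau1. LINC00649 had 2.27 FPKM under DAC with siLuc and 0.313 with siStau1. LINC01060 had 2.22 and 0.807 FPKM, and LINC00665, an RNA studied in several carcinomas, had 1.78 and 0.844. LINC00520, also known as LEENE and described in endothelial cells, was higher in the other arm, with 0.564 FPKM under DAC with siLuc and 1.54 with siStau1. The lower of the 2 DAC values was above 0.3 FPKM in all 15 genes, so reaching 1 FPKM in a single arm does not show a difference between the arms, which was not tested.

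Of the 19 genes 14 had less FPKM in siStau1 DAC than in siLuc DAC and 5 had more, with a median log2 ratio of -0.39 (0.1 FPKM added to each group, as in all log2 ratios here). Over the 329 genes of any kind with the silent-to-on pattern the median was -0.37 and 72.6% were lower in siStau1 DAC. Over all genes tested it was -0.14. This comparison called 0 of the 19 genes in the authors' deposited table.

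By position, the 19 genes lay on 10 chromosomes, 4 of them on chromosome 4 and 3 on chromosome 3. GENCODE classes 18 of them as lincRNA and LINC02158 as antisense. A coding gene on either strand was overlapped by 2 of the 19 and by 25 of the other 149 LINC genes. Any other gene was overlapped by 9 and 82, so the name does not place every LINC gene between coding genes. The nearest start of a protein-coding gene was between 2641 and 1276982 bases away, with a median of 66442 bases, against 36732 bases for the other 149 LINC genes. A coding start within 1000 bases was found for 0 of the 19 and for 23 of the 149 (15.4%), 12 of these in divergent orientation, as in LINC01184 beside SLC12A2. The longest transcripts of the 19 had a median of 1586 bases and 2 exons, and those of the 149 had 1943 bases and 3 exons. Of the 19 genes, 15 have a deposited locus that is the gene alone, while LINC01160, LINC01980, LINC02158 and LINC02240 share a wider locus with other genes, and how reads were divided there is not given in the sources used here.

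A neighbour here is the gene with the nearest coding start, which lay more than 50000 bases away for 12 of the 19 genes. Of the 19 coding neighbours 14 had at least 1 FPKM in some group. None were themselves silent with DMSO and on with DAC in both arms. The share among expressed protein-coding genes was 1.93%, so nothing is read from this absence in so few genes. RASSF10, a Ras-association gene next to LINC00958, had at most 0.0911 FPKM, and TRIML1, next to LINC02434, at most 0.0525. TBL1XR1, a subunit of a corepressor complex next to LINC00501, had 69.0 FPKM in siLuc DMSO and 39.3 in siLuc DAC. CLPTM1L, next to LINC01511, had 90.0 FPKM with DMSO and 167 with DAC in the siLuc arm, and 66.9 and 139 in the siStau1 arm. FGF9, a growth factor gene and the nearest coding neighbour of LINC00540, had 1.34 FPKM in siLuc DMSO and 0.257 in siLuc DAC. It was not called with DAC in the authors' deposited table, with q-values of 0.382 in siLuc and 0.446 in siStau1. EOMES, a T-box factor gene next to LINC01980, had 0.979 and 0.771 FPKM in the same groups. A log2 ratio of at least 1 with DAC in both arms was seen for 3 neighbours, TMIGD3, FBXO44 and MGAT5B. Their lowest q-value for DAC in the authors' deposited table was 0.0833, for MGAT5B in siLuc. No share over all genes stands beside these 3, so nothing is read from them. The 19 include 3 neighbours under 0.1 FPKM in all 4 groups, so a share of the 19 does not have the base of tested genes. The authors' deposited table called 1 of the 19 neighbours with DAC in each arm, against 13.5% of all tested genes in siLuc and 7.46% in siStau1. They were ZNF330, next to LINC02432, which fell in siLuc from 61.4 to 25.8 FPKM (q-value 0.0109), and PCDH7, a protocadherin gene next to LINC02506, which fell in siStau1 from 28.02 to 7.97 FPKM (q-value 0.00162).

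Over all 168 LINC genes, the effect of DAC with the control siRNA is given first. LINC genes with at least 1 FPKM numbered 82 in siLuc DMSO and 137 in siLuc DAC, and the median level went from 0.971 to 1.85 FPKM. The number listed at 0 went from 29 to 1. Of the 168, 120 had a higher and 47 a lower value with DAC, with a median log2 ratio of 0.66, against 0.23 over all tested genes. The authors' deposited table called 23 of 161 tested LINC genes at a q-value under 0.05, or 14.3%, against 13.5% of all tested genes. Of these, 22 rose and 1 fell, that is 13.7% and 0.621%, against 8.71% and 4.78% of all tested genes. The genes were chosen by these values, so nothing is read from these shares or medians. In 20 of the 23 a group was listed at 0.

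The 3 called LINC genes with reads in both groups were LINC01783, LINC00243 and LINC00698. LINC01783 (chromosome 1) had 0.489 FPKM with DMSO and 4.93 with DAC in the siLuc arm, and 0.754 and 2.95 in the siStau1 arm, with q-values in the authors' deposited table of 0.00632 in siLuc and 0.148 in siStau1. LINC00243 (chromosome 6) had 1.39, 4.95, 0.968 and 3.44 FPKM in the same order, with q-values there of 0.0201 and 0.0521. In both, the 2 DAC groups lie above the 2 DMSO groups. LINC00698 (chromosome 3, 62950430 to 63125062, plus strand) was the LINC gene that fell. It had 9.95 FPKM with DMSO and 1.43 with DAC in the siLuc arm, and 12.8 and 3.88 in the siStau1 arm. Its log2 ratios were -2.72 in siLuc and -1.69 in siStau1, with q-values of 0.0118 and 0.0285 in the authors' deposited table.

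Other LINC genes that rose in siLuc and were not silent to on in both arms include LINC02575 (0 to 3.66 FPKM), LINC01060 (0 to 2.22), LINC00479 (0 to 1.84), LINC00665 (0 to 1.78) and LINC02583 (0 to 1.74). LINC01644 went from 0 to 1.26 FPKM, LINC00942 from 0 to 1.09, LINC02074 from 0 to 1.07, LINC02484 from 0 to 0.963 and LINC00520 from 0 to 0.564. Each was listed at 0 in siLuc DMSO, so no fold is given, and the highest of these q-values in the authors' deposited table was 0.0285, for LINC01644.

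In siStau1 cells, LINC genes with at least 1 FPKM numbered 78 in siStau1 DMSO and 119 in siStau1 DAC, and the median level went from 0.876 to 1.51 FPKM. Of the 168, 119 had a higher and 49 a lower value with DAC, with a median log2 ratio of 0.68, against 0.11 over all tested genes. The authors' deposited table called 19 of 158 tested LINC genes, or 12.0%, against 7.46% of all tested genes. Of these 17 rose and 2 fell, against 4.56% and 2.89% of all tested genes, and 16 of the 19 had a group listed at 0. As in siLuc, the genes were chosen by these values, so nothing is read from the shares or medians. LINC01694 rose from 0.328 to 3.35 FPKM, with 0.0266 as its q-value in the authors' deposited table, and LINC01315 fell from 7.52 to 1.37 FPKM, with 0.0464 there. In siLuc LINC01694 had 0.511 and 4.52 FPKM and LINC01315 had 4.44 and 1.24, with q-values of 0.121 and 0.125 in the same table. LINC02377 rose from 0 to 1.41 FPKM and LINC01344 from 0 to 1.04 in siStau1.

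In the authors' deposited table, 13 LINC genes were called in both arms, all 13 in the same direction. They are 56.5% of the siLuc calls and 68.4% of the siStau1 calls. Over all genes the 874 calls shared by both arms, all 874 in the same direction, were 37.0% and 69.0% of the calls, and whether the LINC genes differ from these was not tested. Across the 168 genes, which are not independent replicates and share the scaling of each group, Spearman's rho between the DAC log2 ratios in the 2 arms was 0.786, and over the 149 genes that were not silent to on it was 0.703. The 2 comparisons have no library in common. The log2 ratio was at least 1 in both arms for 56 genes and at most -1 in both for 9. The rule for silent to on places all its genes among the 56. No share over all genes stands beside these counts, so nothing is read from them.

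**Figure D3:**
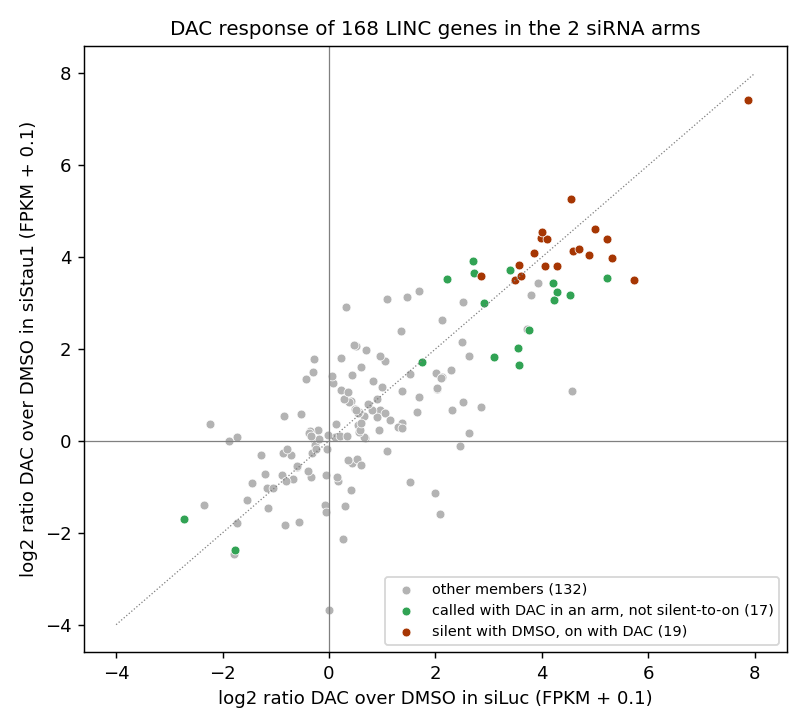
Log2 ratio of DAC over DMSO in siLuc (x axis) against siStau1 (y axis) for the 168 LINC genes, with 1 point per gene, 0.1 FPKM added to each group and a dotted line of equality. The 19 silent-to-on genes lie at the upper right, as their choice requires, and of the other 149 genes 17 were called in an arm.

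By their states in both drugs, 61 of the 168 LINC genes were on in both DMSO groups, and 54 of these stayed on in both DAC groups. Of the 34 silent in both DMSO groups, 19 were on in both DAC groups and 15 in a single one. The gene that was silent in both DAC groups was LINC00237, which had 1.19 FPKM in siStau1 DMSO and was listed at 0 in the other 3 groups, and no comparison called it in the authors' deposited table. Of the 61 genes on in both DMSO groups, 0 were silent in both DAC groups.

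The most abundant LINC genes were on in all 4 groups. LINC01234, the highest by mean log2 level, had 35.1 FPKM with DMSO and 29.04 with DAC in the siLuc arm, and 28.96 and 28.4 in the siStau1 arm. LINC01578, also known as CHASERR and known to restrain its neighbour CHD2, had 33.3, 14.9, 43.6 and 21.5 FPKM in the same order. LINC02210, annotated as a pseudogene that overlaps a readthrough transcript with CRHR1, had 21.6, 21.03, 17.996 and 15.9 FPKM. LINC00467 had 19.04 FPKM with DMSO and 5.68 with DAC in the siLuc arm, and 33.2 and 9.59 in the siStau1 arm. In LINC01578 and LINC00467 both DAC groups lie below both DMSO groups, with log2 ratios of -1.16 and -1.73 in siLuc and -1.01 and -1.78 in siStau1. Centred on genes of like transcript GC content, LINC01578 had -0.51 in siLuc and -0.49 in siStau1, and LINC00467 had -1.23 and -1.37. Neither was called in the authors' deposited table, where the lowest of their 4 q-values for DAC was 0.114, for LINC00467 in siStau1.

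LINC00511, an RNA studied in breast and other carcinomas, had 9.72 FPKM with DMSO and 18.9 with DAC in the siLuc arm, and 8.11 and 12.9 in the siStau1 arm. LINC01515 had 12.6, 8.32, 15.9 and 10.9 FPKM in that order, and LINC01405, next to the muscle gene MYL2, had 12.8, 13.5, 6.57 and 15.9. LINC01835 had 10.4, 17.3, 7.37 and 13.0 FPKM. The DAC groups are thus the higher ones for LINC00511 and LINC01835 and the lower ones for LINC01515. LINC01184, divergent from the ion transporter gene SLC12A2, had 13.5, 8.84, 14.3 and 9.65 FPKM. LINC00963 had 10.4, 13.2, 9.41 and 10.1 FPKM. Of these 10 genes, 0 were called in any of the 4 comparisons in the authors' deposited table. Centred on genes of like transcript GC content, the DAC log2 ratio of LINC01184 went from -0.60 to 0.34 in siLuc and from -0.57 to 0.16 in siStau1, so its direction depends on that step.

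**Figure D4:**
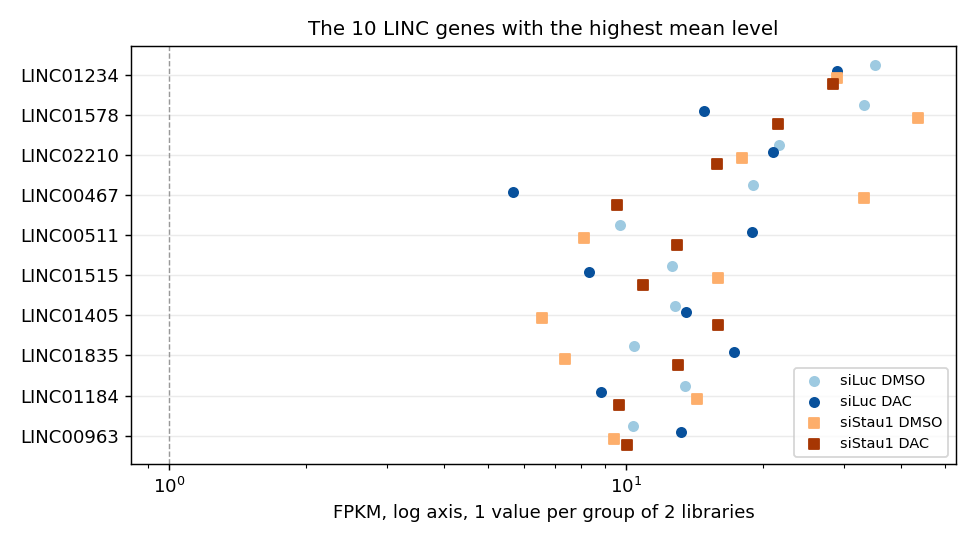
FPKM (log x axis) of the 10 LINC genes with the highest mean log2 level, with 1 point per group of 2 libraries. LINC01234 holds 28.4 to 35.1 FPKM in all 4 groups, while the DAC points of LINC00467 (5.68 and 9.59) lie left of its DMSO points (19.04 and 33.2).

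Fold changes moved with transcript GC content. Across LINC genes that had 1 FPKM or more in each group, the rank correlation (Spearman's rho) of the GC content of the longest transcript with the log2 ratio was 0.330 for DAC in siLuc (71 genes), 0.333 for DAC in siStau1 (63), -0.252 for siStau1 against siLuc with DMSO (61) and -0.250 for the same with DAC (107). After centring on genes of like GC content, the 168 genes had a median log2 ratio of 0.84 for DAC in siLuc, against 0.10 over all genes tested, and 0.64 in siStau1, against 0.04. The 168 genes were chosen by their values, so nothing is read from these medians. The part of GC content in the single values was not tested.

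The groups labelled siStau1 and siLuc were compared first without the drug. Of the 168 LINC genes 55 had a higher and 93 a lower value in siStau1, with a median log2 ratio of -0.07 (-0.02 over all tested genes). The authors' deposited table called 1 of 115 tested LINC genes, or 0.870%, against 0.799% of all tested genes (0.333% higher and 0.466% lower). It was LINC01088, which fell from 1.14 to 0.145 FPKM with a q-value there of 0.0464. With DAC it had 0.818 FPKM in siLuc and 0.524 in siStau1, and with the p-values adjusted within this comparison only it was not called. At an unadjusted p-value under 0.05 there were 4 LINC genes, named here after their values were seen: LINC01088, LINC00674, LINC00992 and LINC01881. LINC00674 had 0.491 FPKM in siLuc DMSO and 6.52 in siStau1 DMSO, with a q-value in the authors' deposited table of 0.176, and 2.40 and 2.103 FPKM in the 2 DAC groups.

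Under DAC, siStau1 against siLuc gave 0 calls by the authors' Cuffdiff q-value among 159 tested LINC genes, against 0.904% of all tested genes (0.434% higher and 0.469% lower), and 5 genes at an unadjusted p-value under 0.05. These 5, named after their values were seen, were LINC00649, LINC01647, LINC02204, LINC02569 and LINC00698. Of the 168 genes 57 had a higher and 110 a lower value in siStau1, with a median log2 ratio of -0.24, against -0.14 over all genes tested. LINC02569 had 2.63 FPKM under DAC with siLuc and 0.473 with siStau1, and LINC00698 had 1.43 and 3.88. A small number of calls does not show that the arms were alike.

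The difference between the arms in the DAC log2 ratio (siStau1 less siLuc) was described for 114 LINC genes with at least 1 FPKM in some group of each arm, and had a median of 0.05. Among the low differences were -3.67 for LINC00674, -2.41 for LINC00992, -2.22 for LINC02432, -1.68 for LINC02575 and -1.67 for LINC00659. LINC02432 and LINC02575 were listed at 0 in siLuc DMSO, so the added 0.1 FPKM sets their values and their place: with 0.01 FPKM added, an alternative chosen after seeing the data, they were -4.53 and -4.44, below LINC00674 at -3.90, and with 1 FPKM added they were -1.21 and -0.41. Among the high ones were 2.60 for LINC01764, 2.002 for LINC01426, 1.87 for LINC01481, 1.82 for LINC00491 and 1.80 for LINC01273, and LINC01764 and LINC01426 went to 0.84 and 0.65 with 1 FPKM added. LINC01764 had 1.27 FPKM with DMSO and 1.62 with DAC in the siLuc arm, and 0.0727 and 1.21 in the siStau1 arm, so the DMSO group of siStau1 is the one that stands apart. For LINC00674 both DMSO groups stand apart from the DAC groups (2.40 and 2.103 FPKM), at 0.491 FPKM in siLuc and 6.52 in siStau1. Its DAC log2 ratios were 2.08 in siLuc and -1.59 in siStau1. These differences have no test, since no value per library is at hand.

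Alu elements, which derive from the 7SL RNA and can pair into double strands when they lie in opposite orientations, are known binding sites of Staufen1. Stretches like 7SL RNA (at least 80 aligned bases) were found in the longest transcript of 15 of the 168 LINC genes (8.93%), against 4.25% of 1271 other expressed long noncoding RNA genes, whose transcripts are shorter (median 949 against 1815 bases). They were in forward orientation in 6 and reverse in 9, and 0 transcripts held both. Of the 19 silent-to-on genes 0 held one. The median log2 ratio of siStau1 over siLuc with DMSO was -0.49 in the 6 genes, -0.14 in the 9 and -0.06 in the 153 without such a stretch, and with DAC it was -0.15, -0.39 and -0.25. None of these differences was tested.

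A list of 20 LINC genes known from studies of cancer or development, chosen by name, was examined. Of these 13 had at least 1 FPKM in a group. With DAC 3 rose in siLuc in the authors' deposited table (LINC00520 and LINC00665, given above, and LINC00667, which is under the limit for membership at 0 FPKM in siLuc DMSO and 0.704 in siLuc DAC), 0 fell, and 0 were called with DAC in siStau1 or between the siRNAs. Of all tested genes 8.71% rose and 4.78% fell in siLuc, and 4.56% and 2.89% in siStau1. The median DAC log2 ratio of the 13 was 0.44 in siLuc and 0.18 in siStau1. LINC00941 had 2.97 FPKM with DMSO and 4.29 with DAC in the siLuc arm, and 1.25 and 5.55 in the siStau1 arm, with 0.0512 as the authors' deposited table's q-value for DAC in siStau1. LINC00857 had 5.17, 6.73, 3.33 and 6.11 FPKM, and LINC00460 had 2.63, 2.04, 2.41 and 2.74.

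For comparison, 24 long noncoding RNAs with names of their own were listed, of which 21 had at least 1 FPKM in a group. Of the 24, 4 rose with DAC in siLuc (H19, KCNQ1OT1, CYTOR and MIR22HG) and 2 in siStau1 (MEG3 and CYTOR) in the authors' deposited table, 0 fell, and 0 were called between the siRNAs, where again 8.71% and 4.56% of all tested genes rose with DAC. H19, an imprinted RNA, had 0.591 FPKM with DMSO and 77.2 with DAC in the siLuc arm, and 0.603 and 60.7 in the siStau1 arm. MEG3, also imprinted, was listed at 0 in siLuc DMSO and had 10.8 FPKM in siLuc DAC, and the siStau1 arm had 0.0912 with DMSO and 5.67 with DAC. By these values MEG3 also met the rule for silent to on. Its q-values for DAC in the authors' deposited table were 0.402 in siLuc and 0.00162 in siStau1. Its calls thus ran against the split by an exact 0 with DMSO. CYTOR had 33.2, 108, 22.1 and 99.6 FPKM. These levels under DAC are above those of all the silent-to-on LINC genes for H19 and CYTOR, and below LINC00958 for MEG3.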

How the data were processed

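The members and lists were chosen with earlier results of these data known. Total RNA libraries were ribosome-depleted and stranded, per the labels' protocols. The authors deposited FPKM values, 1 per gene and group, in the layout of Cuffdiff, with p-values and q-values for each pair of groups, per the file headers. HISAT2 2.1.0, Cuffdiff 2.2.1 and the build hg38 are named in the submitters' processing notes. The deposited q-value was recomputed by the Benjamini-Hochberg method over 102180 tests and differed by at most 5.27e-07. Calls are those with a q-value under 0.05. The planned count tests need values per library and were not run. How the libraries were cultured is not given in the labels, so replicates may be technical.

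Computed here, with Python 3.11.15, pandas 2.3.3, scipy 1.17.1 and blastn 2.17.0: log2 ratios with 0.1 FPKM added to each group, and the same centred on the median of coding genes (at least 1 FPKM in both groups) in 20 bins of transcript GC content, tested on simulated data. All 58699 gene identifiers are in GENCODE release 29 (GRCh38), which gave positions, classes and transcripts. RefSeq start windows came from GRCh38.p14 and were matched by symbol. Stretches like 7SL RNA are blastn matches to RN7SL1 at an E-value of at most 1e-10. Named genes follow a rule: the silent-to-on genes and those of the opposite pattern, the 10 highest by mean log2 level, the 10 called genes that changed most in each direction of a comparison, the 2 genes on either side of each threshold, the 5 largest differences between arms in each direction, lists by name and coding neighbours. Further called genes, the genes on in a single arm and those at an unadjusted p-value under 0.05 were named after their values were seen. The strand setting of the counting is not given in the sources used here, so overlapping genes are uncertain. The deposited tables of J2-bound RNA hold repeat elements and no LINC genes, and were not used.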

Additional observations from a re-analysis of the deposited data

How the results depend on the processing

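The number of LINC genes described was 271 at a limit of 0.5 FPKM and 95 at 2 FPKM. The number of silent-to-on genes, 19, was 12 when only a listing at 0 counted as silent, 34 when 0.5 FPKM with DAC counted as on and 6 when 2 FPKM was asked for, with 28 at a DMSO limit of 0.5 FPKM and 15 without genes in a shared locus, an alternative chosen after seeing the data. Without genes listed at 0 in a group, also chosen after seeing the data, the calls for DAC were 3 in siLuc and 3 in siStau1. In siStau1 12 LINC genes passed a q-value of 0.01. Over the 63 LINC genes at 1 FPKM or more in each group, the median log2 ratio for DAC in siStau1 was 0.083. That limit leaves out every gene under 1 FPKM in a group, silent or not. The 1 call for siStau1 against siLuc with DMSO became 0 at a q-value of 0.01 and 0 when adjusted within that comparison only. Transcript starts that reached the CpG limit went from 5 to 1 of the 19, and from 52 to 32 of the 149, with 0.75 in place of 0.6. For DAC in siLuc the median log2 ratio went from 0.66 to 0.21 over genes at 1 FPKM or more in each group. As a ratio that move is within 1.5-fold. The other medians and counts kept their direction and stayed within 1.5-fold, medians as ratios, under the alternatives run. That limit was used because no spread between replicates can be had. Of 256 log2 ratios of named genes, 20 changed sign with GC centring, none of them called. A pseudocount cannot change the sign of a log2 ratio, only its size. Of the 256 values, 76 moved by more than 1.5-fold with a pseudocount of 0.01 and 94 with a pseudocount of 1. No paired analysis was possible because the table gives 1 value per group, and for the same reason no library could be left out and no other count model was run. Library depth is unknown, so low values have no interval.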
